A study of Mus musculus with 18 samples.

Results

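CD4+ effector T cells lacking CAR, the nuclear receptor encoded by Nr1i3, were compared with wild type cells in the spleen. The comparison was chosen by organ and genotype, and it uses 6 of the 18 libraries of the study, 3 for each genotype. The wild type cells were C57BL/6 CD45.1+ and the CAR-deficient cells C57BL/6 Nr1i3-/-, so the wild type also carried the congenic form of CD45, a leukocyte surface protein encoded by Ptprc. Both kinds of T cell were sorted at week 3 after transfer into Rag-deficient hosts, animals without lymphocytes of their own. Each library held messenger RNA from about 500 cells. The other 12 libraries came from colon and small intestine lamina propria of the same experiment and entered the fit.

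CAR is a receptor for foreign and endogenous small molecules that pairs with the retinoid X receptor on DNA and is best known from liver, where it induces drug-metabolizing enzymes and transporters. In T cells that reach bile-acid-rich gut mucosa, it has been linked to the drug efflux pump MDR1 and to IL-10. Spleen effector cells meet less bile acid. Effector CD4+ T cells can take up helper programmes or a terminal effector state with granzymes, killer cell lectin-like receptors and the migration receptors of circulating cells.

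Libraries are called a, b and c by the ending of their column names, which is not a replicate number. Total estimated counts ran from 19605135 to 24693829, and a floor of 3 counts equalled 0.123 to 0.158 CPM (counts per 1000000 counts, scaled by TMM). The a libraries of both genotypes stood apart, with 15881 and 15466 genes detected against 17323 to 18079 in the other 4. Their 50 most abundant genes took 26.3% and 27.1% of counts against 21.5% or less. In each spleen pair with the same ending, the libraries deviated together (r = 0.296, 0.318 and 0.231 across genes). Separate animals are not named for the libraries, so the spread behind each p-value is that of these libraries and may be technical.

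Nr1i3 (ENSMUSG00000005677, chr1:171213970-171220701, plus strand) had 36, 0 and 7 counts in wild type a, b and c and 0, 14 and 14 counts in CAR-deficient a, b and c. They check no label, since counts summed over a gene cannot tell exons that were removed from exons that were kept. Tomm40l, which encodes a mitochondrial import protein, overlaps Nr1i3 on the opposite strand, and the reads of the overlap cannot be assigned to either gene without strand. It read 4.84, 15.7 and 13.9 CPM in wild type libraries against 4.06, 10.4 and 7.47 CPM in CAR-deficient ones, where the genotypes overlapped.

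The CD4+ T cell label held in all 6 libraries. Cd4 read 134, 133 and 145 CPM in wild type libraries against 159, 109 and 126 CPM in CAR-deficient ones, while Cd8a stayed at or under 2.44 CPM. Cd8b1, the other CD8 marker, was uneven, at 0.0461, 9.40 and 7.12 CPM in wild type libraries against 0, 2.87 and 3.13 CPM in CAR-deficient ones. The summed level of 7 alpha beta CD4 T cell markers was 8701 to 16896 CPM in wild type libraries against 8630 to 15060 CPM in CAR-deficient ones. Markers of other cells were uneven. The 7 erythroid markers summed to 1748, 2320 and 321 CPM in wild type libraries against 146, 2161 and 268.9 CPM in CAR-deficient ones. Neutrophil granule transcripts were found in wild type b alone, with Mpo at 74.7 CPM and Elane at 44.0 CPM against at most 0.0527 CPM in any other library. Ighm, the mu heavy chain of B cells, read 74.1 CPM in wild type c and 38.9 CPM in CAR-deficient c, and 7.33 to 10.4 CPM elsewhere. In bulk libraries, fewer cells of a type and less RNA per cell cannot be told apart.

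No gene passed the test between genotypes in spleen. With edgeR's quasi-likelihood test and Benjamini-Hochberg adjustment at 0.05, 0 of 14876 tested genes were called (0% called), and the smallest adjusted p was 1. At an unadjusted p under 0.05, 160 genes were higher in CAR-deficient libraries (1.08%) and 130 were lower (0.874%), together 290 (1.95%). That is fewer than the 744 that evenly spread p-values would place there. The libraries of the genotypes did not overlap for 480 genes that read higher (3.23%) and 459 that read lower (3.09%), together 939 (6.31%). DESeq2's Wald test on the same genes called 11 higher (0.0739%) and 6 lower (0.0403%), and limma's voomWithQualityWeights 3 higher (0.0202%) and 2 lower (0.0134%). Of the 17 genes DESeq2 called, 9 overlapped between genotypes and 10, all 6 lower ones among them, averaged under 2 CPM in both. With the column ending as a pairing term, edgeR still called 0, with 229 genes higher (1.54%) and 226 lower (1.52%) at an unadjusted p under 0.05 and a smallest adjusted p of 0.505, for Klrg1. DESeq2 with that term called 30 higher (0.202%) and 27 lower (0.182%). Of the genes at an unadjusted p under 0.05 without the pairing, 126 of 160 higher ones (78.8%) and 105 of 130 lower ones (80.8%) were also there with it, which is 55.0% and 46.5% of the paired lists. At that level 103 genes were higher without wild type a and 77 lower without CAR-deficient a, and without both a libraries 49 were higher and 60 lower. The levels that follow describe 6 libraries, and no gene named as higher or lower passed edgeR's adjusted threshold.

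**Figure D1:**
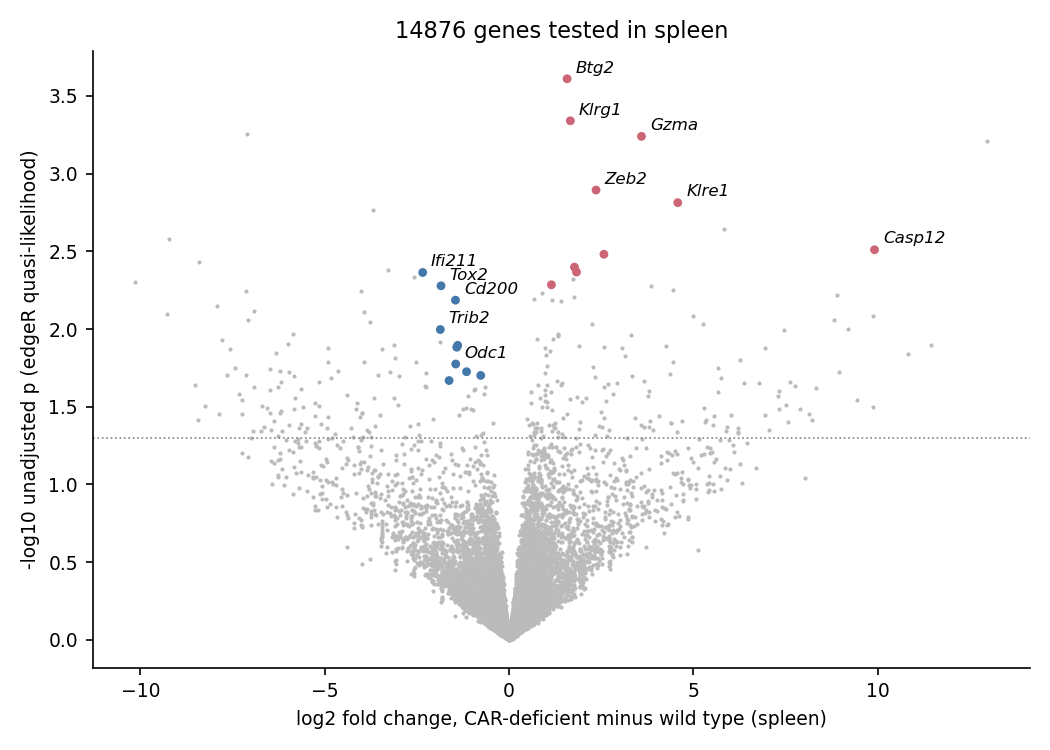
Each point is 1 of the 14876 genes tested in spleen, with the fitted log2 fold change of CAR-deficient over wild type on the x axis and the negative log10 of edgeR's unadjusted p on the y axis. The dotted line marks the unadjusted level used for counts, coloured points are the 20 genes that the naming rule chose though none passed the adjustment, and fitted fold changes of genes at 0 in 1 genotype, such as Casp12, depend on the prior count.

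The 10 genes with the smallest p among those higher, without overlap and with at least 5 CPM in a genotype, were Btg2, Klrg1, Gzma, Zeb2, Klre1, Casp12, Cx3cr1, Il18rap, Pgm2l1 and Sytl2. Unnamed gene models and receptor V segments were passed over, here Gm28438 and Gm3435. Most of the 10 are known from cytotoxic or terminal effector lymphocytes: Gzma is a granule protease, Klrg1 and Klre1 are lectin-like receptors, Zeb2 is a transcriptional repressor of terminal effector cells, and Cx3cr1 is a receptor for the chemokine fractalkine. Il18rap is a chain of the IL-18 receptor and Sytl2 a protein of granule transport. Btg2 restrains proliferation and shortens messenger RNA tails. Because the rule required that libraries not overlap, their separation is no finding in itself.

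The upstream sequences of Btg2, Gzma, Klre1 and Cx3cr1 are shown because these genes read higher together and stand for the antiproliferative, granule, lectin receptor and migration genes below. Each holds the 250 bases before the transcript start, 5′ to 3′ on the gene's strand, from RefSeq on GRCm38.p6. They lie at chr1:134079156-134079405 (minus strand), chr13:113100982-113101231 (minus), chr6:129577963-129578212 (plus) and chr9:120068297-120068546 (minus).
Btg2: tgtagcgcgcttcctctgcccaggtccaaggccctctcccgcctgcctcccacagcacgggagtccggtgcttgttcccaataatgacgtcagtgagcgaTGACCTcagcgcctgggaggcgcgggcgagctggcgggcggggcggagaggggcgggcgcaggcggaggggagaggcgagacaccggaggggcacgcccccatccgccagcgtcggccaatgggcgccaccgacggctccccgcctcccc
Gzma: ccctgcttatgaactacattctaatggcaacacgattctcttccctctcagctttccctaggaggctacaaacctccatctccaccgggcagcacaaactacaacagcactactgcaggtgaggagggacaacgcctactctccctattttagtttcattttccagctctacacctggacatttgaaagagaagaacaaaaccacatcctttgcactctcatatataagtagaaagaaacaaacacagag
Klre1: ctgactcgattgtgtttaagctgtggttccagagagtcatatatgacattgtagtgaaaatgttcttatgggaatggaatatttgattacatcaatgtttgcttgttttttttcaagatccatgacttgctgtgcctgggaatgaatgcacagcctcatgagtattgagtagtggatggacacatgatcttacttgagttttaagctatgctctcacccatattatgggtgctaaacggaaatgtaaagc
Cx3cr1: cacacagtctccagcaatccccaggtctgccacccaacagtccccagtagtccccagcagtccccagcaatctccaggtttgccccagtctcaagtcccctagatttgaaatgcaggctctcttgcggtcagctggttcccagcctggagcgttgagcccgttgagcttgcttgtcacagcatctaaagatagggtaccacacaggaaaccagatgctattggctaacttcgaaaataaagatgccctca
Capitals mark a match, on either strand, to the nuclear receptor half-site AGGTCA. The other motif searched was the T-box core TCACACC, which has no overlap with the first. Btg2 held 1 match, on the reverse strand, with its first base 150 bases before the start, and the other 3 windows held neither motif. AGGTCA was found in 4607 of all 32851 windows of this length and TCACACC in 1095 (3.33%), so the match is a description and not a binding site. All 4 genes were matched by symbol, and the RefSeq start lies 1583 bases from the outermost GENCODE start for Cx3cr1 and 308 bases for Klre1.

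Btg2 (ENSMUSG00000020423, chr1:134075170-134079120) read 29.6, 49.8 and 58.3 CPM in wild type a, b and c and 93.2, 136 and 181 CPM in CAR-deficient a, b and c. Every CAR-deficient library lay above every wild type library, and a was the lowest and c the highest library in both genotypes. Its log2 fold change was 1.57 ± 0.33 (edgeR, standard error), from 45.9 ± 14.7 to 137 ± 43.6 CPM (SD, n = 3). The unadjusted edgeR p was 0.000245, the smallest of all genes tested, with an adjusted p of 1. DESeq2 and voomWithQualityWeights called Btg2, with adjusted p = 0.00723 and 0.0109. Leaving out 1 library gave log2 fold changes of 1.32 to 1.78.

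Gzma (ENSMUSG00000023132, chr13:113093825-113100981), a granule protease, read 102, 69.2 and 345 CPM in wild type libraries against 2792, 804 and 2629 CPM in CAR-deficient ones. The lowest CAR-deficient library, b, still lay above the highest wild type library, c. The log2 fold change was 3.59 ± 0.84, and DESeq2's adjusted p was 0.00286 against 0.233 with voomWithQualityWeights. Wild type c carried part of the wild type level: the log2 fold change was 4.599 without that library.

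Of the 3 granzymes measured in quantity, Gzma held a different place by genotype in the order of mean levels. Levels between genes are given per length, as CPM per kilobase of the gene's GENCODE exons. Gzma read 101, 68.8 and 343 in wild type libraries and 2775, 799 and 2613 in CAR-deficient ones on this scale. Gzmb, the granzyme that activates caspases in target cells, read 907, 868 and 272 in wild type libraries and 897, 1319 and 399 in CAR-deficient ones. Gzmk, a granzyme of early effector cells, read 892, 1101 and 423 in wild type libraries and 318, 568 and 475 in CAR-deficient ones. By the mean, wild type libraries held Gzmk, Gzmb and Gzma in descending order (805 ± 347, 682 ± 356 and 171 ± 150 CPM per kilobase, SD). CAR-deficient libraries held Gzma, Gzmb and Gzmk (2062 ± 1097, 872 ± 460.1 and 453 ± 126). Neighbours in each order overlapped between libraries, and the order of the means held only in wild type b and CAR-deficient a. Gzmb lay above Gzmk in wild type a and above Gzma in CAR-deficient b. Gzma lay above Gzmb in wild type c, and Gzmk lay above Gzmb in CAR-deficient c. The log2 fold changes were 0.35 ± 0.45 for Gzmb and -0.83 ± 0.43 for Gzmk, with libraries that overlapped.

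**Figure D2:**
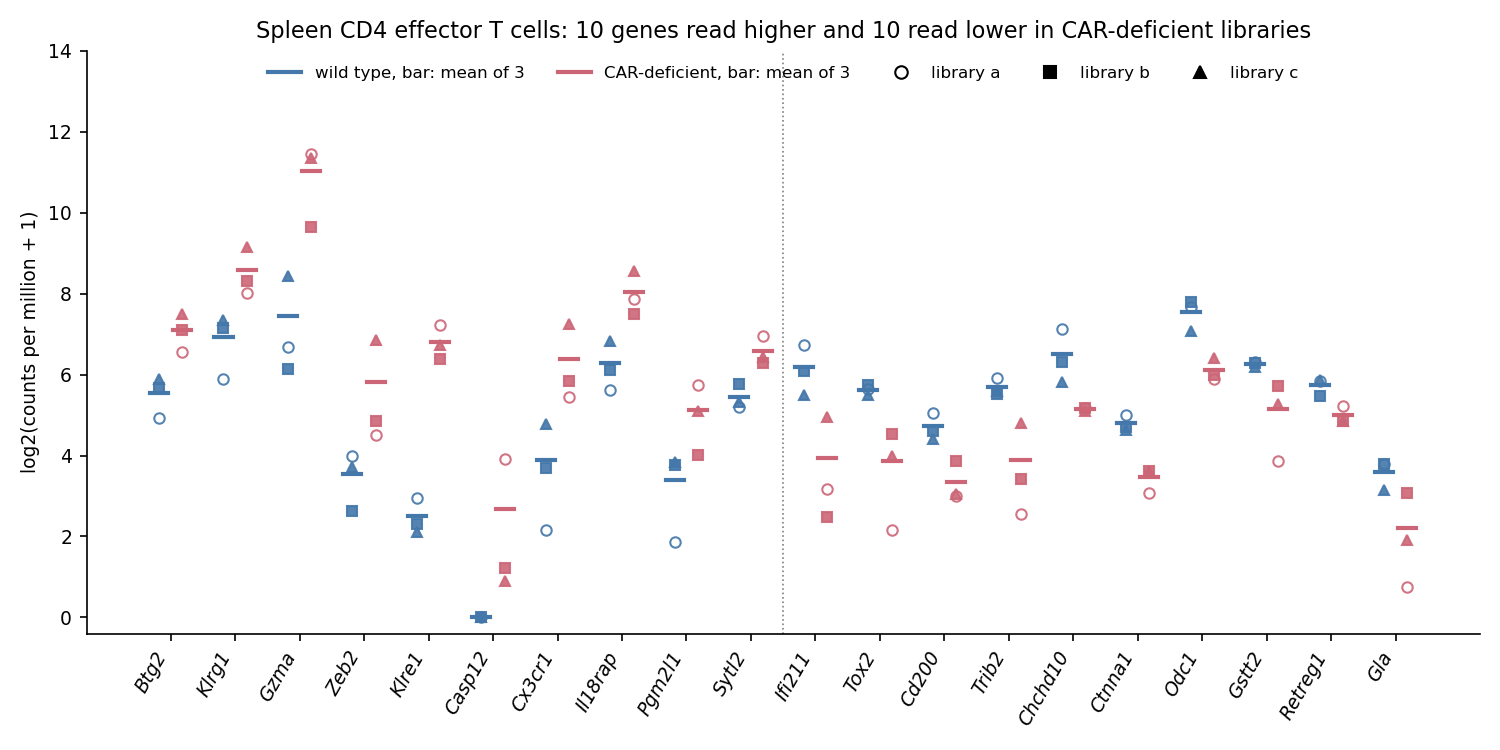
Points give log2(CPM + 1) in each of the 6 spleen libraries for the 10 genes named as higher and the 10 named as lower, with symbols for libraries a, b and c and bars at the mean of 3. Libraries of the genotypes do not overlap for these genes by construction, and the gap is widest for Klre1 and Gzma, narrow for Gla, Pgm2l1 and Retreg1.

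Of 16 genes of the cytotoxic granule and death ligand list, all 16 were tested and 11 had a log2 fold change above 0. Gzma alone had an unadjusted p under 0.05, against 1.08% of all genes in the higher direction. The median was 0.37, against 0.01 over all genes tested. Perforin (Prf1), the pore-forming granule protein, read 21.7, 26.3 and 15.2 CPM in wild type libraries against 30.5, 40.8 and 32.3 CPM in CAR-deficient ones (log2 fold change 0.71 ± 0.58). The granule membrane gene Nkg7 was abundant in both genotypes, at 3423 to 8828 CPM and 5197 to 11945 CPM.

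All 14 genes of the terminal effector list were tested, and all 14 log2 fold changes were above 0, with a median of 1.48. Of these, 6 had an unadjusted p under 0.05 in the higher direction and 0 in the lower. The genotypes did not overlap for 8. Over all genes those shares were 1.08% and 3.23%. The list was chosen with earlier results of these data known, and Gzma and Klrg1 were among those results, so the counts are not independent evidence. Gzma is also in the granule list.

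Klrg1 (ENSMUSG00000030114, chr6:122270596-122282882), an inhibitory receptor and the classical marker of terminal effector cells, read 58.1, 140 and 163 CPM in wild type libraries against 258, 317 and 570 CPM in CAR-deficient ones. The log2 fold change was 1.66 ± 0.38, and within same-ending pairs the CAR-deficient library was higher in 3 of 3. DESeq2 gave an adjusted p of 0.0152 and voomWithQualityWeights one of 0.0552.

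Zeb2 read 14.8, 5.15 and 12.1 CPM in wild type libraries against 21.8, 28.1 and 115 CPM in CAR-deficient ones. Here 1 library, CAR-deficient c, lay far above the rest: the log2 fold change was 2.36 ± 0.60 with it and 1.22 without it. Cx3cr1 read 3.50, 11.9 and 26.3 CPM in wild type libraries against 42.5, 56.3 and 150 CPM in CAR-deficient ones (2.57 ± 0.74, and 1.82 without CAR-deficient c). With the column ending DESeq2 called both, with adjusted p = 0.00603 for Zeb2 and 0.00106 for Cx3cr1, against 0.0527 and 0.141 without it.

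S1pr5, a sphingosine-1-phosphate receptor of circulating terminal effector cells, read 0, 1.19 and 18.3 CPM in wild type libraries against 29.7, 32.7 and 118 CPM in CAR-deficient ones. Its log2 fold change of 3.21 ± 1.89 had an unadjusted p of 0.108 in edgeR and 0.0468 with the column ending. Ly6c2, a surface protein of circulating effector cells, read 257, 205 and 277 CPM against 497, 334 and 552 CPM (0.90 ± 0.38). Libraries overlapped for Tbx21, Id2 and Eomes, other transcription factor genes of the programme. Tbx21, which encodes T-bet, read 9.95, 17.5 and 31.95 CPM in wild type libraries against 21.2, 31.8 and 37.7 CPM in CAR-deficient ones (0.61 ± 0.73), Id2 had a log2 fold change of 0.33 ± 0.27 and Eomes one of 0.09 ± 0.45, which was -0.11 with voomWithQualityWeights.

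**Figure D3:**
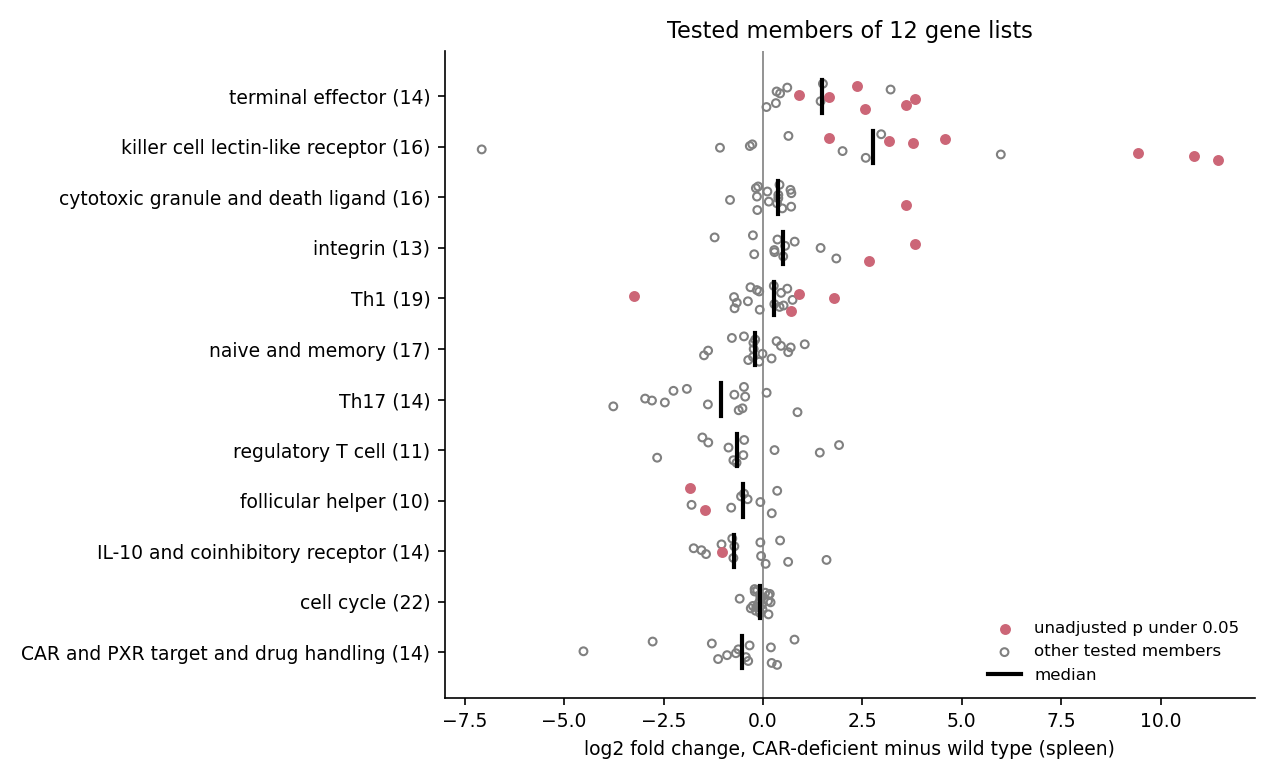
Each point is a tested member of 1 of 12 gene lists (number tested in brackets), placed by its log2 fold change in spleen on the x axis, with filled points at an unadjusted p under 0.05 and a bar at the median. All 14 terminal effector members lie above 0, and the 22 cell cycle genes lie close to 0 with a median of -0.07.

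Killer cell lectin-like receptors are surface receptors of natural killer cells and of some effector T cells. Of the 20 genes listed, 16 passed the filter on low counts, 12 had a log2 fold change above 0, and 7 had an unadjusted p under 0.05 in the higher direction, none in the lower. The genotypes did not overlap for 6. Over all genes the shares were 1.08% and 3.23%. The 4 genes that did not pass, Klra8, Klrb1, Klrc3 and Klri1, read at most 7.61 CPM in any library. Since a gene can pass the filter through the genotype in which it is high, these counts describe the 16 tested genes only. This list too was chosen with earlier results of these data known. It shares Klrg1 with the terminal effector list, so its counts are not separate evidence. The median log2 fold change was 2.78, and 2.78 with the genes at 0 in all wild type libraries set to their bound.

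Klre1 (ENSMUSG00000050241, chr6:129577905-129585827), which pairs with Klri chains in rodents, had the clearest separation. It read 6.77, 3.92 and 3.33 CPM in wild type libraries against 148, 82.1 and 104 CPM in CAR-deficient ones (log2 fold change 4.58 ± 1.20). DESeq2 and voomWithQualityWeights called it, with adjusted p = 0.00709 and 0.0109. Its neighbour Klrd1, the CD94 chain, read 4.70, 12.4 and 62.0 CPM against 301, 148 and 257 CPM (3.16 ± 1.16), with a DESeq2 adjusted p of 0.455, and 0.00468 with the column ending. Klrk1, which encodes the activating receptor NKG2D, read 5.67, 9.53 and 16.8 CPM against 74.8, 92.6 and 83.8 CPM (2.97 ± 1.59), with an unadjusted edgeR p of 0.0793. In none of the 3 genes did the genotypes overlap.

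The Ly49 genes are nearly identical copies that share reads, so single members are uncertain. Klra4 was at 0 in the 3 wild type libraries and read 25.7, 1.598 and 3.40 CPM in CAR-deficient ones, a mean at least 79.3-fold above the wild type floor of 3 counts per library. Klra1 was also at 0 in wild type and read 39.6, 7.28 and 0 CPM. DESeq2 called Klra4 (adjusted p = 3.68e-08) and voomWithQualityWeights did not (0.410). For Klra1, DESeq2's adjusted p was 0.599, and 5.5e-06 with the column ending. Most of either level came from CAR-deficient a. Not all lectin-like receptors read this way. Klrb1f read 44.9 to 89.0 CPM in wild type libraries against 26.8 to 75.0 CPM in CAR-deficient ones, and Klrc1 21.8 to 44.8 and 8.74 to 46.2 CPM.

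Markers of natural killer and innate lymphoid cells were looked at beside these genes. The 9 markers summed to 10.1, 18.2 and 28.1 CPM in wild type libraries against 66.3, 29.7 and 47.7 CPM in CAR-deficient ones, without overlap. Klra4, Klra8, Klra9, Klrb1c and Klri2 are in both lists. Of the 8 markers tested, 7 had a log2 fold change above 0 (median 1.33). At an unadjusted edgeR p under 0.05, 3 were higher and 0 lower, against 1.08% and 0.874% of all genes. The limit of the filter given above holds here too. Ncr1, the receptor that defines these cells, was at 0 in all wild type libraries and in CAR-deficient a, and read 0.423 and 4.26 CPM in CAR-deficient b and c. CAR-deficient a, with no Ncr1 count, had the highest Gzma, Klre1 and Klrd1 levels of the 6. It also had the highest sum of the 9 markers, with Klra4 at 25.7 CPM and Klra9 at 9.86 CPM. Gamma delta T cell markers summed to 1.796, 22.9 and 96.3 CPM in wild type libraries against 286.9, 146 and 78.9 CPM in CAR-deficient ones. Tcrg-C2 read 0, 7.32 and 69.4 CPM in wild type libraries against 264, 119 and 71.3 CPM in CAR-deficient ones, while Trdc, which defines these cells, read 0, 8.79 and 1.48 CPM in wild type libraries against 0, 0.282 and 0 CPM in CAR-deficient ones. The part of other cells in the levels of receptor genes was not tested.

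Integrins bind matrix and vessel wall ligands. Of 13 tested, 10 had a log2 fold change above 0 (median 0.51), 2 had an unadjusted p under 0.05 in the higher direction and 0 in the lower, and 4 did not overlap in the higher direction, against 1.08%, 0.874% and 3.23% of all genes. Itgax, the CD11c chain, read 0, 0.491 and 0.717 CPM in wild type libraries against 11.0, 2.35 and 3.94 CPM in CAR-deficient ones (3.82 ± 1.70). Itga1, a collagen-binding chain, read 1.34, 0.818 and 0.969 CPM against 8.70, 2.63 and 8.43 CPM (2.66 ± 1.24). Both were low genes. The abundant lymphocyte integrin chain Itgal read 426 to 562 CPM and 417 to 678 CPM.

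Among the Th1 genes, Il18rap (ENSMUSG00000026068) read 48.3, 68.6 and 113 CPM in wild type libraries against 231, 178 and 378 CPM in CAR-deficient ones (1.77 ± 0.53). The Th1 list as a whole was mixed. Of 19 tested genes, 10 were above 0 and 9 below, with a median of 0.27. At an unadjusted p under 0.05, 3 were higher (Il18rap, Ly6c2 and Bhlhe40) and 1 lower (Ly6c1, which may share reads with Ly6c2), against 1.08% and 0.874% of all genes. The cytokine gene Ifng was abundant, at 618, 601 and 242 CPM in wild type libraries against 842, 754 and 497 CPM in CAR-deficient ones (0.52 ± 0.62). Tnf read 17.0, 36.1 and 20.6 CPM against 9.01, 33.1 and 17.1 CPM (-0.31 ± 0.47). The chemokine receptor gene Cxcr3 lay lower without overlap, at 324, 470 and 368 CPM against 124, 280 and 305 CPM, with an unadjusted edgeR p of 0.155, and 0.00801 with the column ending.

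Casp12, an inflammatory caspase gene, was at 0 in the 3 wild type libraries and read 14.1, 1.32 and 0.861 CPM in CAR-deficient a, b and c. The mean lay at least 42.0-fold above the wild type floor, and most of it came from CAR-deficient a. DESeq2 called it (adjusted p = 0.00709) and voomWithQualityWeights did not (0.663). Pgm2l1, an enzyme that makes glucose 1,6-bisphosphate, read 2.63, 12.5 and 13.2 CPM in wild type libraries against 52.7, 15.04 and 33.3 CPM in CAR-deficient ones. Its log2 fold change was 1.83 ± 0.55, and 0.91 without both a libraries. Sytl2 read 35.7, 53.7 and 38.7 CPM against 122, 76.7 and 85.5 CPM (1.15 ± 0.36), and DESeq2's adjusted p was 0.00722 with the column ending and 0.472 without it. Slc2a3, a glucose transporter and the glycolysis list's gene with the smallest p, read 16.2, 24.4 and 17.7 CPM against 59.0, 26.7 and 44.9 CPM (1.17 ± 0.37).

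With Trav10, an alpha V segment, passed over, the 10 genes named as lower were Ifi211, Tox2, Cd200, Trib2, Chchd10, Ctnna1, Odc1, Gstt2, Retreg1 and Gla. Their log2 fold changes ran from -2.34 for Ifi211 to -0.77 for Retreg1, and no tool called any of them without the column ending. Ifi211 is described with the other genes of chromosome 1.

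Tox2, a DNA-binding factor of follicular helper and chronically stimulated T cells, read 49.1, 52.2 and 44.1 CPM in wild type libraries against 3.48, 22.1 and 14.9 CPM in CAR-deficient ones. The wild type libraries lay close together and the CAR-deficient ones spread below them. The log2 fold change was -1.84 ± 0.57, from 48.5 ± 4.11 to 13.5 ± 9.39 CPM (SD, n = 3). Cd200, a surface protein of follicular helper cells that quiets myeloid cells, read 32.4, 23.2 and 20.4 CPM against 6.96, 13.5 and 7.25 CPM (-1.45 ± 0.46).

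Follicular helper cells support antibody responses. Of the 10 listed genes, all tested, 8 had a log2 fold change below 0 (median -0.51). Tox2 and Cd200 had an unadjusted p under 0.05, against 0.874% of all genes in that direction, and 3 did not overlap in the lower direction, against 3.09%. Libraries overlapped for Bcl6 and Cxcr5, which define these cells. Bcl6 read 3.09, 1.64 and 2.40 CPM in wild type libraries against 6.75, 0.752 and 0.815 CPM in CAR-deficient ones. Il21, the cytokine gene of these cells, read 130, 133 and 15.9 CPM against 28.6, 40.6 and 11.1 CPM. Its unadjusted p was 0.0832 in edgeR and 0.00973 with the column ending. Wild type c lay below 2 of the CAR-deficient libraries and above its own pair.

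Odc1 (ENSMUSG00000011179), the rate-limiting enzyme of polyamine synthesis, read 203, 222 and 134 CPM in wild type libraries against 58.7, 62.7 and 84.0 CPM in CAR-deficient ones (-1.45 ± 0.54). Of the 10 polyamine genes tested, 7 lay below 0 (median -0.13). Odc1 alone had an unadjusted p under 0.05, against 0.874% of all genes in the lower direction. Antizyme (Oaz1), an inhibitor of that enzyme, read 1247 to 1527 CPM in wild type libraries against 1106 to 1637 CPM in CAR-deficient ones.

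Trib2, a pseudokinase that promotes protein degradation, read 59.0, 44.9 and 47.2 CPM in wild type libraries against 4.90, 9.78 and 26.8 CPM in CAR-deficient ones (-1.86 ± 0.64, and -2.78 without CAR-deficient c). Chchd10, a mitochondrial intermembrane protein, read 138, 78.0 and 55.4 CPM against 35.3, 34.8 and 33.3 CPM (-1.39 ± 0.50). Ctnna1, which links cadherins to actin, read 31.1, 25.2 and 23.8 CPM against 7.38, 11.2 and 11.37 CPM (-1.42 ± 0.51). The remaining 3 were Gstt2, a glutathione transferase (-1.15 ± 0.44), Retreg1, a receptor for the autophagy of endoplasmic reticulum (-0.77 ± 0.30), and the lysosomal enzyme gene Gla (-1.63 ± 0.64).

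Genes of IL-10 and inhibitory or costimulatory receptors read mostly lower. Of 14 tested, 10 had a log2 fold change below 0, with a median of -0.73 against 0.01 over all genes tested. Icos, a costimulatory receptor, read 477, 284 and 230 CPM in wild type libraries against 224, 99.1 and 161 CPM in CAR-deficient ones (-1.03 ± 0.44). It alone had an unadjusted p under 0.05, against 0.874% of all genes in the lower direction. With the column ending 4 genes did, Icos, Tigit, Il10 and Maf, against 1.52% of all genes in that direction. Il10, an anti-inflammatory cytokine gene, read 60.4, 42.1 and 6.28 CPM in wild type libraries against 17.3, 18.2 and 1.72 CPM in CAR-deficient ones. The genotypes overlapped because wild type c was low, while the CAR-deficient library was lower in 3 of 3 same-ending pairs. Its log2 fold change was -1.55 ± 0.97 (unadjusted p = 0.129, and 0.0135 with the column ending), and 0.99 with wild type c as the only wild type library. Tnfrsf4, the OX40 costimulatory receptor, had the same form, at 645, 286 and 74.4 CPM against 184, 129 and 37.1 CPM (-1.52 ± 0.83, unadjusted p = 0.0863, and 0.00188 with the column ending).

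Several defining genes of regulatory T cells and Th17 cells were scarce in spleen. Foxp3, the defining factor of regulatory T cells, read 0, 0.164 and 4.26 CPM in wild type libraries against 0, 0 and 0.679 CPM in CAR-deficient ones, and Il17a was found in wild type c alone, at 0.211 CPM. Of the 11 regulatory T cell genes tested, 8 lay below 0 (median -0.66), none with an unadjusted p under 0.05. Of the 14 Th17 genes, 12 lay below 0. Their median was -1.05, and -0.66 with 1 gene at its bound. None had an unadjusted p under 0.05 without the column ending, and with it 1 did in the higher and 4 in the lower direction. Over all genes those shares with the column ending were 1.54% and 1.52%. Cytokine and receptor genes of these cells were low, as Il17f, Il22 and Il23r stayed at or under 3.16 CPM in every library. Of the 6 Th2 genes tested, Areg, a growth factor gene, was lower without overlap at 1.11, 3.76 and 1.096 CPM against 0.0527, 0.940 and 0.408 CPM (-2.07 ± 0.91).

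Naive and memory genes showed no common direction. Of 17 tested, 6 lay above 0 and 11 below, none with an unadjusted p under 0.05. Ccr7, a homing receptor gene of naive cells, read 0.368, 6.05 and 28.7 CPM against 17.8, 4.56 and 18.5 CPM, and Il7r, the IL-7 receptor chain, 65.4, 33.2 and 137 CPM against 177, 63.3 and 142 CPM. For both genes the spread within a genotype was as wide as the distance between genotypes.

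Of the 5 antiproliferative Btg and Tob genes, all tested, 5 had log2 fold changes above 0 (median 0.46). Btg2 and Tob1 had an unadjusted p under 0.05, against 1.08% of all genes. Tob1 read 6.63, 13.7 and 21.6 CPM in wild type libraries against 31.4, 27.3 and 26.2 CPM in CAR-deficient ones (1.02 ± 0.38). Of the 22 cell cycle genes, 6 lay above 0 and 16 below, with 0 at an unadjusted p under 0.05. Mki67, a proliferation marker, read 272, 327 and 245 CPM against 244, 336 and 227 CPM (-0.07 ± 0.29).

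Genes known as targets of CAR or of its relative PXR, and drug handling genes, were read as a list. Of the 21 listed, 14 were tested, 4 above and 10 below 0 (median -0.52). At an unadjusted p under 0.05 there were 0, against 1.95% of all genes, and 0 were without overlap, against 6.31%. With shares this small, 0 in 14 genes does not tell these genes from others. With the column ending 1 gene, Aldh1a1, had an unadjusted edgeR p under 0.05 in the lower direction, against 1.52% of all genes. Abcb1a, which encodes the efflux pump MDR1, read 22.1, 27.2 and 18.5 CPM in wild type libraries against 16.9, 29.2 and 40.5 CPM in CAR-deficient ones (0.36 ± 0.48). Its copy Abcb1b read 12.8, 13.7 and 17.0 CPM against 25.2, 13.8 and 11.6 CPM (0.22 ± 0.39). Cyp2b10, the liver enzyme most used as a readout of CAR, read 0.0921 CPM in wild type a, under the floor, and 0 in the other 5 libraries, so a difference was not detectable at this depth. 

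Genotype and the CD45.1 marker cannot be told apart in this design, since every wild type library carries the marker, and Nr1i3 and Ptprc are both on chromosome 1. On that chromosome 28 of 880 tested genes had an unadjusted p under 0.05 (3.18%), against 262 of 13996 on other chromosomes (1.87%). Chromosome 1 was not the highest, as chromosome 14 had 4.10% and chromosome 6 had 3.78%. Both hold clustered receptor families. Of 108 tested receptor alpha V segments, a family on chromosome 14, 5 were higher and 9 lower at that level (13.0%). Chromosome 6 holds Klre1, Klrd1, Klra4 and other lectin-like receptor genes. Within 10 Mb of Ptprc it was 3 of 96 (3.13%), with 11 genes that did not overlap (11.5%). Within 10 Mb of Nr1i3 it was 7 of 174 (4.02%), with 10 that did not overlap (5.75%), against 6.26% on other chromosomes. Ptprc itself read 1686, 1993 and 1282 CPM in wild type libraries against 2026, 2001 and 1972 CPM in CAR-deficient ones (0.27 ± 0.28). Btg2 lies 4.04 Mb from Ptprc. Cd55b, a complement-regulating gene 7.71 Mb from Ptprc, read 0.783, 0.531 and 1.01 CPM in wild type libraries against 0 in the 3 CAR-deficient libraries. That is a mean at least 5.35-fold below wild type.

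The chromosome 1 genes with PYHIN domains, which encode DNA sensors induced by interferon, lie 2.26 to 2.76 Mb from Nr1i3. They are close copies of each other, and reads may be split between them. Ifi211 read 105, 67.1 and 44.3 CPM in wild type libraries against 7.96, 4.56 and 30.1 CPM in CAR-deficient ones (-2.34 ± 0.70, and -3.53 without CAR-deficient c). DESeq2's adjusted p was 0.197, and 0.00211 with the column ending. Ifi204 read 2.03, 8.01 and 10.6 CPM against 69.1, 27.1 and 6.89 CPM (2.32 ± 1.08). In both genes CAR-deficient c lay nearer to the wild type libraries than CAR-deficient a and b did.

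More genes of that cluster set CAR-deficient c apart from CAR-deficient a and b. Ifi213 read 47.5, 50.9 and 141 CPM in wild type libraries against 4.90, 5.45 and 172 CPM in CAR-deficient a, b and c. Ifi206 read 148, 158 and 189 CPM against 47.9, 28.8 and 317 CPM. In spleen CAR-deficient c lay above every wild type library for both Ifi213 and Ifi206. The pseudogene Ifi203-ps read 0.415, 0.450 and 0.253 CPM against 26.2, 16.5 and 0.498 CPM. At Ifi213 and Ifi203-ps the c library of the CAR-deficient cells lay nearer to wild type than a and b in the other organs too. In colon Ifi213 read 48.4, 53.7 and 75.3 CPM in wild type libraries against 14.3, 8.48 and 89.0 CPM in CAR-deficient a, b and c, and in small intestine 39.8, 60.6 and 225 CPM against 4.79, 23.0 and 213 CPM. Ifi203-ps read at most 0.433 CPM in wild type libraries against 0.0438 and 0.276 CPM in CAR-deficient c of colon and small intestine, against 3.45 to 19.7 CPM in CAR-deficient a and b. In colon Ifi204 read 1.13, 3.56 and 9.30 CPM in wild type libraries against 50.04, 30.8 and 9.54 CPM in CAR-deficient ones. For Ifi204 in small intestine CAR-deficient c was the highest library, at 0.901, 4.37 and 24.9 CPM against 32.7, 33.0 and 39.9 CPM.

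At other chromosome 1 genes CAR-deficient c read like CAR-deficient a and b. Gm28438, a gene model 147 Mb from Nr1i3, is one of them. It read 0 in the 3 wild type libraries and 38.4, 44.6 and 52.0 CPM in CAR-deficient a, b and c of the spleen, at least 349-fold above the floor. DESeq2 and voomWithQualityWeights called it, with adjusted p = 6.03e-22 and 1.58e-05. In the gut, wild type a was not at 0 for Gm28438, with 2.19 CPM in colon and 5.27 CPM in small intestine. CAR-deficient libraries there read 28.5 to 78.6 CPM. Whether the reads of Gm28438 came from that place in the genome was not tested. Cd55b was at 0 in CAR-deficient c, and Btg2 read highest there. Every spleen value includes this library, so the 20 named genes were refitted without it. All 20 kept their direction, which follows from the rule that their libraries not overlap. That fit had 198 genes higher and 182 lower at an unadjusted p under 0.05.

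**Figure D4:**
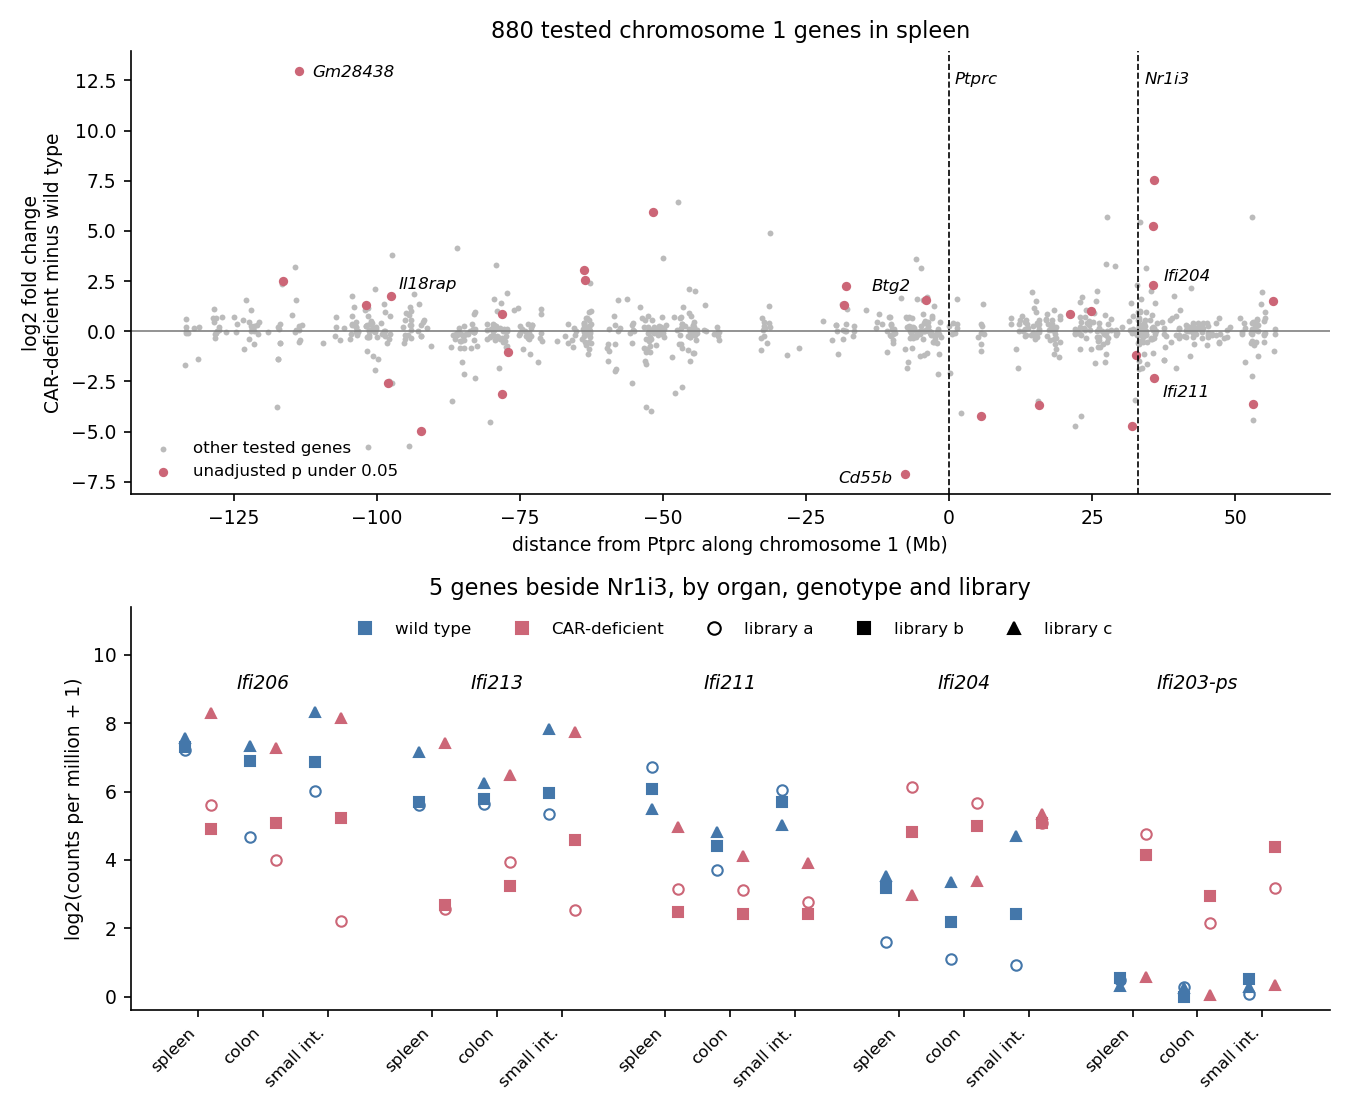
Top, log2 fold changes in spleen of the 880 tested chromosome 1 genes by distance from Ptprc in megabases, with filled points at an unadjusted p under 0.05 and dashed lines at Ptprc and Nr1i3. Bottom, log2(CPM + 1) of 5 genes beside Nr1i3 in the 18 libraries. For Ifi213 and Ifi203-ps, CAR-deficient c (red triangles) lies nearer to wild type than CAR-deficient a and b in each organ. For Ifi206, CAR-deficient c lies above every wild type library in spleen, and CAR-deficient b lies within the wild type range in colon.

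Shares of T cell receptor V segment counts describe each pool of cells and do not count clones. Trbv26, a beta chain V segment, held 72.0%, 57.8% and 0.227% of beta V counts in wild type a, b and c, and 0%, 0.466% and 0.404% in CAR-deficient a, b and c. Wild type a and b thus shared a dominant segment that wild type c lacked. In CAR-deficient c, Trbv16 held 56.3%, while no beta V segment held more than 15.4% in CAR-deficient a and b. Among alpha V counts, Trav7d-2 held 22.1% in CAR-deficient a and Trav3-3 held 31.5% in CAR-deficient c. No alpha V segment held more than 11.3% elsewhere. CAR-deficient a had counts for 18 beta and 67 alpha V segments, against 22 to 24 and 97 to 107 in the other libraries. With wild type c as the only wild type library, the log2 fold change was 1.23 for Btg2, 1.23 for Klrg1, 2.60 for Gzma and 5.08 for Klre1. These genes were named for not overlapping between genotypes, so their direction could not change in this refit.

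The same genes were read in the gut, where 2.44% of genes in colon and 4.31% in small intestine had an unadjusted p under 0.05 between genotypes. Of the 10 genes named as higher in spleen, 9 also lay above 0 in colon lamina propria and 9 in small intestine lamina propria. Of the 10 named as lower, 9 and 7 lay below 0. Over all tested genes above 0 in spleen, 55.1% and 54.6% were above 0 in colon and small intestine, and of those below 0, 58.4% and 55.5% were below. Libraries with the same ending deviated together across organs too, with r over 0.1 in 41 of 45 pairs, so the organs are not independent. Whether the organs came from the same hosts is not given in the sources used here. Btg2 had nearly equal log2 fold changes in the 3 organs, 1.57 ± 0.33 in spleen, 1.70 ± 0.34 in colon and 1.70 ± 0.34 in small intestine. Gzma had 3.59 ± 0.84, 2.01 ± 0.78 and 2.67 ± 0.80. Trib2 had -1.86 ± 0.64, -2.01 ± 0.64 and -1.42 ± 0.63, and Odc1 had -1.45 ± 0.54, -1.73 ± 0.54 and -1.54 ± 0.54.

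The genes compared here were named for a small p in spleen, which favours a larger value in spleen than elsewhere: of the 10 higher ones, 9 had the larger value in spleen than in colon, and 9 than in small intestine. The p of a difference is therefore given as a description. The log2 fold change of Klrg1 was 1.66 ± 0.38 in spleen, 0.49 ± 0.37 in colon and 0.31 ± 0.37 in small intestine. The difference from spleen had an unadjusted edgeR p of 0.0399 for colon and 0.0202 for small intestine. Klre1 had 4.58 ± 1.20, 1.24 ± 1.05 and 2.47 ± 1.09, with unadjusted p of the difference of 0.0417 and 0.174. Cd200 had -1.45 ± 0.46 in spleen, -0.34 ± 0.46 in colon and 0.49 ± 0.46 in small intestine, with p of the difference of 0.103 and 0.00871. Ctnna1 had -1.42 ± 0.51, 0.16 ± 0.50 and 0.24 ± 0.50, with p of the difference of 0.0411 and 0.0327.

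No difference between organs passed the adjustment. Spleen minus colon called 0 of 14876 genes with edgeR (smallest adjusted p = 1.00), with 75 higher in spleen (0.504%) and 109 lower (0.733%) at an unadjusted p under 0.05, and DESeq2 called 8 (0.0538%). Spleen minus small intestine called 0, with 202 higher (1.36%) and 135 lower (0.908%), and DESeq2 called 12 (0.0807%). The 10 genes with the smallest p in each, among named genes with at least 5 CPM in a spleen group, had opposite signs in spleen and gut in 10 of 10. Choosing genes by the p of a difference favours opposite signs but does not fix them. Among these genes, Exd2, an exonuclease-domain gene, had 0.77 ± 0.35 in spleen, -0.62 ± 0.35 in colon and -0.82 ± 0.35 in small intestine. Ncapd3, a condensin subunit gene, had 0.91 ± 0.43, -0.52 ± 0.43 and -1.04 ± 0.43.

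**Figure D5:**
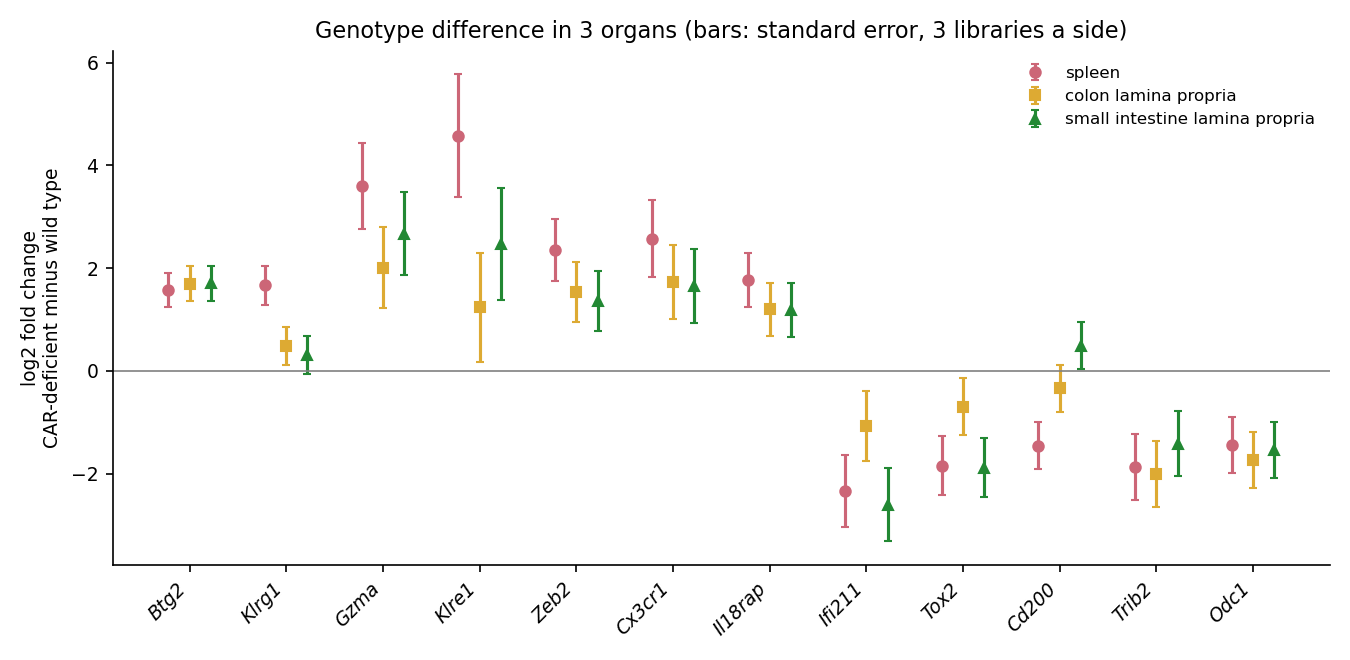
Log2 fold changes of CAR-deficient over wild type for 12 named genes in spleen, colon and small intestine lamina propria, with bars of 1 standard error from the edgeR fit. Btg2 lies between 1.57 and 1.70 in the 3 organs, whereas Klrg1 lies at 1.66 in spleen and at 0.49 and 0.31 in the gut.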

How the data were processed

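The deposited values used are the authors' estimated counts per gene, per the file headers, in 1 column for each library. Salmon, DESeq2 and mm10 stand in the submitters' processing notes without roles or versions. Per the labels' protocols, cDNA was made with SMART-Seq v4 and libraries with NEBNext Ultra II, and no strand is stated. The 34162 gene identifiers all matched GENCODE vM21 (GRCm38). Columns marked CD45.1 negative were taken as CAR-deficient by elimination, and 37 other columns were not used.

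Estimated counts were rounded to whole numbers. edgeR 4.0.16 (R 4.3.3) kept 14876 genes (filterByExpr), scaled by TMM, and fitted 6 group means to all 18 libraries (glmQLFit, common biological coefficient of variation 0.791), with two-sided glmQLFTest and Benjamini-Hochberg adjustment over all genes at 0.05. CPM use the TMM-scaled sizes, standard errors are log2 fold changes divided by the root of F, and the fit was tested on simulated data. DESeq2 1.42.0 and voomWithQualityWeights (limma 3.58.1) were alternatives.

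Column endings were taken to pair libraries, because every same-ending spleen pair correlated above 0.1 in its deviations from the group means. Other spleen pairs ran from -0.260 to 0.0516. The members, gene lists and naming rule were chosen with earlier results of these data known. The rule names Nr1i3, Ptprc, Tomm40l, Btg2, Cd4 and Cd8a. It adds up to 15 called genes per direction, filled to 10 by the smallest p among genes with at least 5 CPM and no overlap. Unnamed gene models and variable segments are passed over. It then takes up to 4 genes per list at an unadjusted p under 0.05, or the 1 with the smallest p, 18 fixed genes, and the 10 smallest p of each difference between organs at that level. Named beyond the rule, after their values were seen, were Bcl6, Cd55b, Cxcr3, Cxcr5, Elane, Eomes, Gm28438, Gzmk, Id2, Ifi203-ps, Ifi206, Ifi213, Ighm, Il17f, Il21, Il22, Itgal, Klrb1f, Klrc1, Klrd1, Klrk1, Maf, Nkg7, Oaz1, S1pr5, Tcrg-C2, Tigit and the V segments. Not every gene of the rule is reported here. Without molecular identifiers, reads are no separate molecules, and floors of 3 counts cover counting error only.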

Additional observations from a re-analysis of the deposited data

How the results depend on the processing

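No alternative gave an edgeR call in spleen after adjustment. DESeq2 called 11 genes higher and 6 lower, voomWithQualityWeights 3 and 2. At an unadjusted p under 0.05, voomWithQualityWeights gave 277 higher and 276 lower, and 148 and 269 for spleen minus colon. With no low-count filter these were 326 and 292 in spleen, 222 and 348 for spleen minus colon, and 397 and 362 for spleen minus small intestine, over more genes. For the differences between organs, DESeq2 called 4 higher and 4 lower against colon, with 115 higher at an unadjusted p under 0.05, and 10 and 2 against small intestine. With the column ending as a replicate block, edgeR had 226 lower in spleen, 123 higher against colon and 216 lower against small intestine. DESeq2 with that pairing, an alternative chosen after seeing the data, called 30 and 27 in spleen (396 and 406 unadjusted), 9 and 8 against colon (258 and 272) and 24 and 5 against small intestine (412 and 398).

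Counts also moved when libraries were left out, in either direction. Without both a libraries 49 were higher and 60 lower in spleen, and 47 higher against colon. With wild type c alone there were 54 and 76 in spleen, 48 higher against colon and 80 higher against small intestine, the lone library being assumed to vary like the others. Leaving out 1 spleen library gave 103 (without wild type a) to 238 higher and 77 (without CAR-deficient a) to 184 lower. It gave 69 to 125 (without wild type b) and 113 to 205 (without CAR-deficient c) against colon, with 188 lower without CAR-deficient b, and 162 to 223 and 121 to 192 against small intestine.

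Of 54 genes, 31 kept direction and side of the threshold under every alternative. The 54 include the genes named as higher or lower without overlap, whose direction could not change when libraries were left out. Leaving out 1 spleen library, log2 fold changes ran from -1.17 to 1.51 for Nr1i3, which has few counts, -0.21 to 0.42 for Abcb1b, -0.11 to 0.42 for Eomes, -0.91 to 0.069 for Tnf, -0.26 to 0.051 for Mki67 and -0.075 to 0.70 for Gzmb. Nr1i3 also read 2.24 with voomWithQualityWeights, 0.54 in the replicate block of spleen libraries only, 2.08 without both a and 0.53 with wild type c alone. Abcb1b read -0.22 with voomWithQualityWeights and -0.27 without both a, and Eomes -0.11 and -0.24. With wild type c alone, Gzmk read 0.10, Tbx21 -0.074, Il10 0.99, Mki67 0.14, Tnfrsf4 0.66, Il21 0.76 and Il7r -0.086. The causes were not tested. The medians of 43 lists moved beyond their tolerance in 90 of 688 refits.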
